A study of Mus musculus with 9 samples.

Results

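The Ly6 family genes of mouse chromosome 15 were followed in MC38 colon carcinoma cells and in cells of the same line recovered from liver metastases. The members were taken by gene symbol. Of 8 symbols (Ly6a, Ly6c1, Ly6c2, Ly6d, Ly6e, Ly6k, Lypd2 and Gpihbp1), 4 had a row among the 16399 genes of the expression files: Ly6a (NCBI Gene 110454), Ly6c1 (17067), Ly6c2 (100041546) and Ly6e (17069). Ly6d, Ly6k, Lypd2 and Gpihbp1 were not analysed here. Of the 4 listed members, 3 (Ly6a, Ly6c1 and Ly6e) passed the filter on low values, which was at least 1 TPM in at least 3 of the 9 libraries and left 11287 genes to test. TPM is transcript abundance corrected for transcript length and scaled to a common total.

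Poly(A) RNA was sequenced from 9 cultures, 3 of the parental line (MC38-P) and 3 of either derivative (MC38-LM3a, MC38-LM3b). MC38-P is the parental line, a mouse colon carcinoma line that the labels describe as epithelial. MC38-LM3a and MC38-LM3b are derivatives isolated independently after repeated passage of MC38 cells from the spleen to the liver of immunocompetent C57BL/6 mice, in 3 rounds, with growth in culture after each. By the study's methods all the lines, parental included, carry GFP and firefly luciferase, and no drug or other agent separates the groups. Each derivative is 1 selected cell population, so the replicates of a group are cultures of the same cells and not separate selections. The question was which transcripts differ between the parental cells and their liver metastatic derivatives.

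Ly6 proteins are small proteins held at the outer cell membrane by a glycosylphosphatidylinositol (GPI) anchor, and they share a compact fold of finger-like loops fixed by disulfide bonds. In the mouse, several of their genes sit side by side on chromosome 15. Ly6a encodes Sca-1, a marker of hematopoietic stem cells that interferons induce in many cell types. Ly6c1 and Ly6c2 encode forms of the Ly6C antigen of monocytes, T cells and endothelial cells, while Ly6e encodes an interferon-induced protein that restricts the entry of some viruses.

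Because the genes arose by duplication, their transcripts resemble each other, and short reads can fit more than 1 of them. Bases 1 to 300 of the coding sequences of Ly6c1, Ly6c2 and Ly6a, counted from the start codon, are shown for this reason, from the GENCODE M21 annotation of GRCm38, where all 3 genes lie on the minus strand of chromosome 15. Capitals in Ly6c1 and Ly6c2 mark the bases in which these genes differ from each other, and capitals in Ly6a mark the bases that differ from Ly6c1 or have no counterpart in it.
Ly6c1: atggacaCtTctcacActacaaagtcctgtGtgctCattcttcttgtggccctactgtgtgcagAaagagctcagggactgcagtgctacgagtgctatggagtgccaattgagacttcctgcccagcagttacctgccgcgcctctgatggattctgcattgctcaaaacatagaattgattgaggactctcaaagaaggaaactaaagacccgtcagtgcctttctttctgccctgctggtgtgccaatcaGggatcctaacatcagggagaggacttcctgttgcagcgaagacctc
Ly6c2: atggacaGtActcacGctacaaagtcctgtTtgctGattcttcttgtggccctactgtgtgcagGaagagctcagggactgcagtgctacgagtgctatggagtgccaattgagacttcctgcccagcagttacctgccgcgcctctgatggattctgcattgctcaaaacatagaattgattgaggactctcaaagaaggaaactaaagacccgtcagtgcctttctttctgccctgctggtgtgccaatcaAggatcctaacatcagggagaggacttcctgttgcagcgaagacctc
Ly6a: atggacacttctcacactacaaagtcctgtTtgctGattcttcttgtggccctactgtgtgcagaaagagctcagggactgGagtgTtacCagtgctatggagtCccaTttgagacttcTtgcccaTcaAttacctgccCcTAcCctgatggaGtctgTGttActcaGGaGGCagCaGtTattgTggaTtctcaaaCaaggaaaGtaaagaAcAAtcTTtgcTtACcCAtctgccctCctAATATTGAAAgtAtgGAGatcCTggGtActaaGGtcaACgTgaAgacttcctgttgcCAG
The coding sequences of Ly6c1 and Ly6c2 are 396 bases long and differ in 9 bases, 7 of them in the stretch shown, an identity of 97.7%. Their longest shared run is 188 bases, and 46.7% of the 50-base windows of either occur unchanged in the other, so how the authors' counting divided reads between these genes is uncertain. Ly6a (405 bases) has 82.0% identity to Ly6c1, with a longest shared run of 48 bases, and shares a run of 52 bases with Ly6c2. Ly6i, a family gene outside the members, is closer to Ly6a, at 86.4% identity with a shared run of 80 bases. Of the 50-base windows of Ly6a and Ly6i, 8.71% occur unchanged in the other, so the division of reads between them is uncertain as well. Ly6e (411 bases) is the most distant of the 4 listed members, at 53.1% identity to Ly6a and 50.1% to Ly6c1. It shares no run of more than 9 bases with Ly6a or Ly6c1. Untranslated regions were not compared.

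Between 10875 and 11218 genes per library reached 1 TPM. The files hold no counts, so the sequencing depth behind these values is unknown, and intervals for counting error are not given. Replicate 3 of MC38-P had a median log2(TPM + 1) over tested genes of 4.44 against 4.70 and 4.64 in the other MC38-P libraries. Replicate 3 of MC38-LM3a stood at 4.77 against 4.52 and 4.49. Results for the members are given with these libraries and, in 1 sentence further on, without them.

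Ly6e was the most abundant member in every library, followed by Ly6a, Ly6c1 and Ly6c2. Ly6e was present at 401.31, 390.92 and 370.58 TPM in the 3 MC38-P libraries. Its levels were 312.44, 284.28 and 296.11 TPM in MC38-LM3a and 321.35, 302.35 and 317.62 TPM in MC38-LM3b. All 6 derivative libraries lay below all 3 parental ones, and the ranges of the derivatives overlapped. By mean level Ly6e ranked 368 of the 16399 genes in MC38-P, and it ranked 498 and 480 in the derivatives MC38-LM3a and MC38-LM3b.

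Ly6a had 329.33, 312.9 and 325.62 TPM in MC38-P. Its values were 226.27, 197.47 and 204.48 TPM in MC38-LM3a and 212.97, 206.78 and 229.34 TPM in MC38-LM3b. Again every derivative library was below every parental library, and the derivatives overlapped. Its rank by mean level was 445 in the parental line, 738 in MC38-LM3a and 732 in MC38-LM3b.

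Ly6c1 had 116.77, 116.2 and 105.96 TPM in MC38-P. It was measured at 66.89, 55 and 59.13 TPM in MC38-LM3a and at 61.52, 55.82 and 52.75 TPM in MC38-LM3b, so that parental and derivative libraries did not overlap while the derivatives did. Its rank went from 1445 to 2734 and 3246. Ly6c2 was near the lower end of the scale in all lines, with 0.41, 0.2 and 0.43 TPM in MC38-P, 0.09, 0.34 and 0 in MC38-LM3a, and 0, 0.18 and 0.15 in MC38-LM3b. Its groups overlapped when MC38-P was set against MC38-LM3a, whereas all MC38-P values were above those of MC38-LM3b by as little as 0.2 against 0.18 TPM. Ly6c2 made up between 0 and 0.614% of the summed Ly6c1 and Ly6c2 level of a library.

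**Figure D1:**
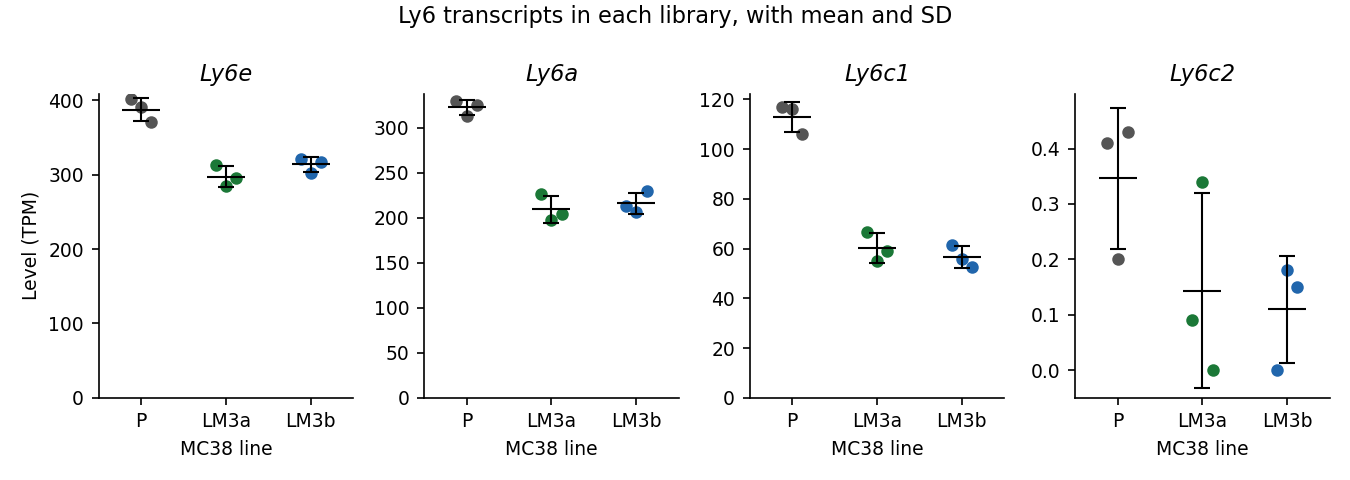
Level of the 4 listed Ly6 genes in TPM (vertical axes, each with its own scale) in each library, grouped by line. Points are libraries and bars give the mean and SD (n = 3). For Ly6e, Ly6a and Ly6c1 the derivative points sit below the parental ones, and Ly6c2 stays at or under 0.43 TPM.

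The order of the levels held within each group beyond the spread between libraries. The closest neighbours were Ly6e and Ly6a, whose lowest and highest MC38-P values were 370.58 and 329.33 TPM. Ly6e, Ly6a and Ly6c1 together amounted to 823 ± 22.8 TPM in the parental libraries (SD, n = 3), to 567 ± 35.1 in MC38-LM3a and to 587 ± 19.1 in MC38-LM3b. Within that sum the share of Ly6c1 was 13.7% in MC38-P against 10.6% and 9.67% in the derivatives. In the same order of lines, Ly6e took 47.1%, 52.5% and 53.5% and Ly6a 39.2%, 36.9% and 36.9%.

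In MC38-LM3a all 3 tested members fell against MC38-P at an adjusted p-value under 0.05, where 13.8% of all tested genes were lower by the same rule. The 1563 genes behind that share became 2612 without replicate 3 of MC38-LM3a, 960 without replicate 2 of MC38-P and 2731 with offsets for GC content and length, and all 3 members stayed called. Ly6a went from 323 ± 8.62 to 209 ± 15.02 TPM (SD, n = 3), or 64.9% of the parental level. Its log2 fold change on the log2(TPM + 1) scale was -0.62 (standard error 0.0668, 95% interval -0.77 to -0.48, adjusted p = 8.61e-05 in limma). Ly6c1 showed the largest fall of the 3, to 60.3 ± 6.04 TPM or 53.4% of the 113 ± 6.08 TPM in MC38-P, with a log2 fold change of -0.90 (standard error 0.0894, interval -1.09 to -0.70, limma adjusted p = 5.08e-05). Ly6e was reduced least, to 298 ± 14.1 TPM or 76.8% of 388 ± 15.6 TPM, with a log2 fold change of -0.38 (standard error 0.0583, interval -0.51 to -0.25, limma adjusted p = 8.27e-04).

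In MC38-LM3b the same 3 members fell, against 11.2% of tested genes called lower. That share depends on the scaling: 1263 genes were called lower in the values as deposited, 2981 under median centring, 2767 under quantile normalization and 3140 with offsets for GC content and length, while the 3 members were called lower in each. The middle of all tested genes lay at a log2 fold change of 0.21 there, compared with 0.00 in MC38-LM3a, and 46.7% of the genes were called in either direction (28% in MC38-LM3a). Ly6a reached 216 ± 11.7 TPM (SD, n = 3), 67.1% of the parental level, with a log2 fold change of -0.58 (interval -0.72 to -0.43, limma adjusted p = 1.04e-04). Ly6c1 reached 56.7 ± 4.45 TPM, 50.2% of the parental level, with a log2 fold change of -0.98 (interval -1.18 to -0.79, limma adjusted p = 2.19e-05). Ly6e reached 314 ± 10.1 TPM, 81.0% of the parental level, with a log2 fold change of -0.30 (interval -0.43 to -0.17, limma adjusted p = 0.00209). Under median centring the value for Ly6e was -0.53 (limma adjusted p = 7.24e-04). Both comparisons use the same MC38-P libraries and are therefore not independent of each other.

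The 3 members were called lower in both derivatives, as were 9.07% of all tested genes. Parental and derivative libraries did not overlap for any of the 3, a pattern in the lower direction shared by 15.9% and 15.4% of tested genes. None of them passed the limit of 1 on the absolute log2 fold change that the study adds for a differentially expressed gene, which 2.89% and 3.93% of tested genes did. Ly6c1 in MC38-LM3b was closest to that limit and passed it under median centring (-1.21), under quantile normalization (-1.13), without replicate 1 of MC38-LM3b (-1.04) and without replicate 3 of MC38-P (-1.03). Without replicate 3 of MC38-P, the log2 fold changes in MC38-LM3a were -0.62 for Ly6a, -0.94 for Ly6c1 and -0.41 for Ly6e, and without replicate 3 of MC38-LM3a they were -0.61, -0.88 and -0.38, all past the threshold.

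Ly6c2 was below the filter and entered only the fits without it. There its log2 fold change was -0.24 in MC38-LM3a (limma adjusted p = 0.202) and -0.28 in MC38-LM3b (0.101), and with a pseudocount of 0.1 TPM it was -1.09 (0.225) and -1.18 (0.137). With the pseudocount of 1 TPM the unadjusted limma p in MC38-LM3b was 0.0416. After adjustment no difference was detected at these levels.

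Between the derivatives no member passed the test in limma, and 0.0532% of tested genes did (6 genes, against 38.1% at an unadjusted p under 0.05). The 6 became 6351 without replicate 3 of MC38-LM3a, and still no member was called. Unadjusted p-values of the 3 members were above 0.05 as well in the values as deposited. The log2 difference of MC38-LM3b from MC38-LM3a was 0.05 for Ly6a (95% interval -0.10 to 0.20, limma adjusted p = 0.575), -0.09 for Ly6c1 (-0.28 to 0.11, adjusted p = 0.449) and 0.08 for Ly6e (-0.05 to 0.21, adjusted p = 0.309). Against the median of 0.21 over all genes, the values of the 3 members lay lower. When each library was centred on the median of its tested genes, they became -0.17, -0.31 and -0.15. None was called, while the unadjusted p of Ly6c1 in limma was then 0.0108 (0.0151 under quantile normalization, where its difference was -0.26).

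The members lie on a chromosome whose transcripts were lower as a whole in the derivatives. Of 464 tested genes of chromosome 15, 316 were called lower and 15 higher in MC38-LM3a, where 13.8% and 14.1% of all tested genes were. In the other derivative 222 were lower and 30 higher, against 11.2% and 35.6%. The median log2 fold change of the chromosome was -0.53 and -0.31. Ly6c1 stood toward the low end, with 39 chromosome 15 genes (8.41%) below it in MC38-LM3a and 24 (5.17%) in the other derivative. Ly6a was nearer to the middle, with 166 (35.8%) and 105 (22.6%) genes below it. Ly6e was above or close to the middle, with 306 (65.9%) and 238 (51.3%) genes below it.

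**Figure D2:**
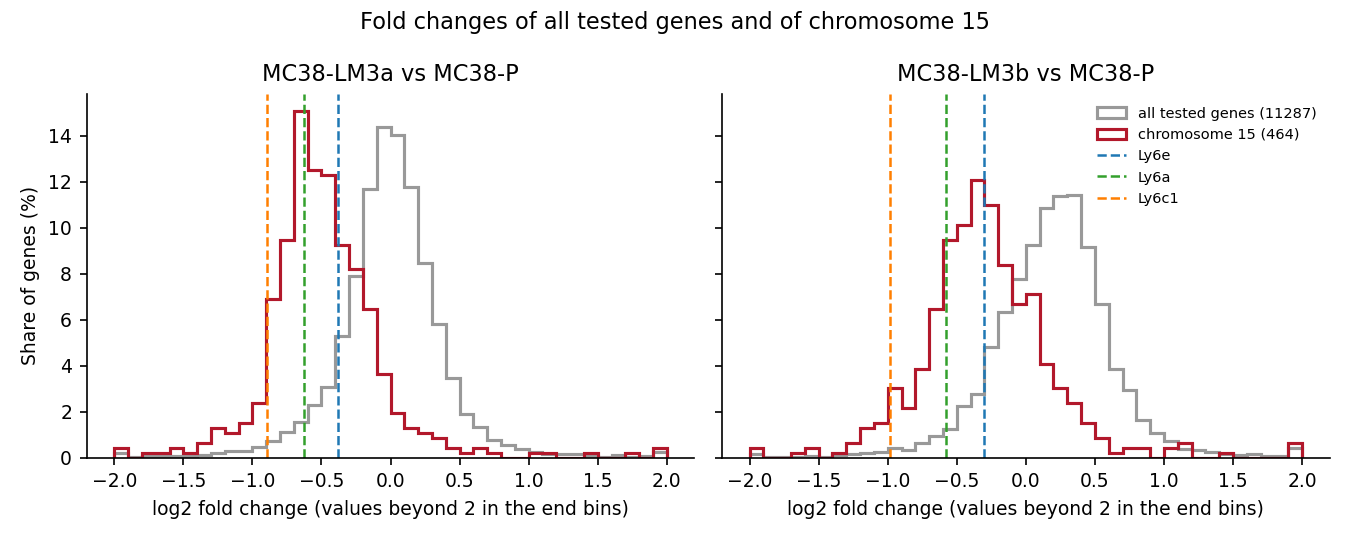
Share of genes (vertical axis, percent) by log2 fold change (horizontal axis) for all 11287 tested genes in gray and the 464 of chromosome 15 in red, with dashed lines at the Ly6 members. The chromosome 15 curve is centred below that of all genes in both comparisons, at medians of -0.53 and -0.31. Ly6c1 lies in its lower tail, and Ly6e at -0.38 and -0.30.

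Each library was next centred on the median of its chromosome 15 genes, an alternative chosen after the data were seen. Relative to the chromosome, Ly6c1 was lower in MC38-LM3a by a log2 difference of -0.32 (limma adjusted p = 0.00847) and in MC38-LM3b by -0.63 (1.06e-04). Ly6a was no longer past the threshold, at -0.05 (limma adjusted p = 0.673) and -0.22 (0.0640). Ly6e changed its sign, with 0.20 in MC38-LM3a (limma adjusted p = 0.0422, so that it was called higher) and 0.05 in MC38-LM3b (0.591). The centring subtracted shifts of -0.58 and -0.35 from the log2 fold changes of all genes alike. The share of all genes called under it is not given here. The call of Ly6e as higher is therefore not read as particular to Ly6e. A p that misses the threshold does not show that a member followed the chromosome's median.

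The fall was unequal among the members, which was examined by the ratio of their levels inside each library, where a factor that scales both genes alike cancels. The ratio of Ly6e to Ly6c1 was 3.44, 3.36 and 3.50 in the MC38-P libraries, and in the derivatives 4.67, 5.17 and 5.01 (MC38-LM3a) or 5.22, 5.42 and 6.02 (MC38-LM3b). The highest parental ratio was thus below the lowest derivative one. On the log2 scale the derivatives exceeded MC38-P by 0.61. The ratio of Ly6a to Ly6c1 was 2.82, 2.69 and 3.07 in MC38-P, 3.38, 3.59 and 3.46 in MC38-LM3a and 3.46, 3.70 and 4.35 in MC38-LM3b, a log2 difference of 0.35. The ratio of Ly6e to Ly6a was closest to even, at 1.22, 1.25 and 1.14 in MC38-P, 1.38, 1.44 and 1.45 in MC38-LM3a, and 1.51, 1.46 and 1.38 in MC38-LM3b, a log2 difference of 0.26. All 6 derivative libraries were above all 3 parental ones in each ratio. Either derivative against MC38-P gave p = 0.1 for each ratio (two-sided exact permutation test of the log2 ratio), the smallest that 3 libraries against 3 allow, and MC38-LM3b against MC38-LM3a gave 0.2 for Ly6a to Ly6c1, 0.1 for Ly6e to Ly6c1 and 0.4 for Ly6e to Ly6a. The ratios were chosen after the unequal falls had been seen, so they describe the same difference and do not support it.

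**Figure D3:**
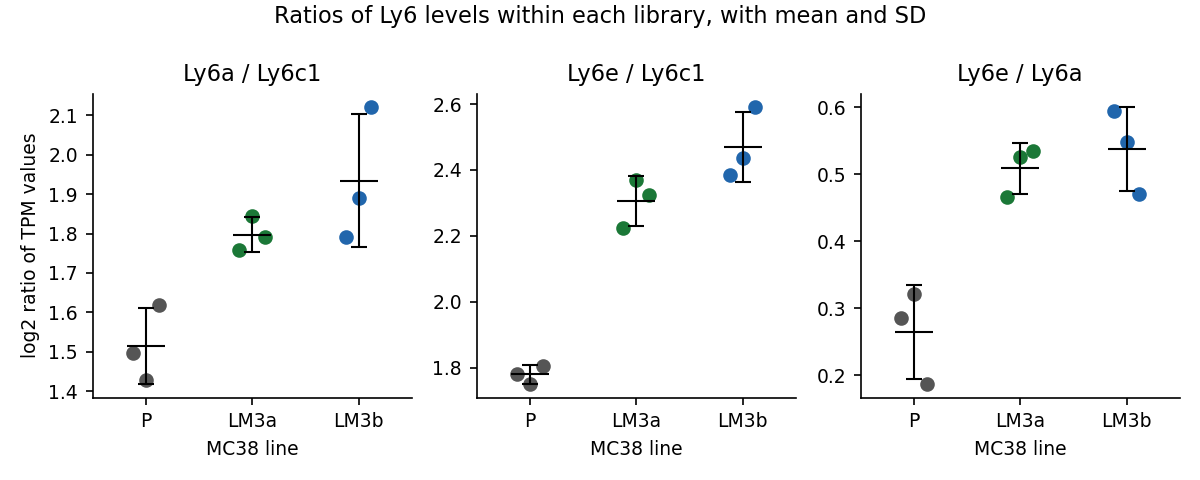
Log2 ratio of the TPM values of pairs of Ly6 members inside each library (vertical axes, each with its own range), with the parental line at the left and the derivatives beside it. Points are libraries and bars the mean and SD (n = 3). In each panel the 3 MC38-P points lie below the 6 derivative points.

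Within 1 Mb on either side of the members' outer ends, in the RefSeq gene order of GRCm38.p6, 40 other genes were tested. Their median log2 fold change was -0.57 in MC38-LM3a, where 29 were called lower and 1 higher, beside 13.8% and 14.1% of all tested genes. It was -0.35 for the other derivative, where 22 were called lower and 2 higher, beside 11.2% and 35.6%. Of these neighbours, 6 and 3 lay below Ly6c1 in MC38-LM3a and MC38-LM3b. Below Ly6a there were 17 and 13, and below Ly6e there were 29 and 23. Them6, the nearest tested gene outside the outermost of the 8 named members on the side of Ly6e, had mean levels of 45.2 TPM in the parental line and 21.4 and 19.1 TPM in the derivatives, with log2 fold changes of -1.04 and -1.20 (limma adjusted p = 8.87e-06 and 2.46e-06). On the opposite side Zfp41, a zinc finger gene, had -0.42 (limma adjusted p = 0.0352) and -0.29 (0.0886).

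The genes next to the tested members did not pass the test. Lynx1, a family member that binds nicotinic acetylcholine receptors, adjoins Ly6e among tested genes and had log2 fold changes of -0.11 (limma adjusted p = 0.501) and -0.03 (0.836). Ly6g, a neutrophil antigen, adjoins Ly6c1 and had -0.38 (limma adjusted p = 0.117) and -0.21 (0.298). Both are low, between 3.0 and 6.46 TPM in every library. Mroh1 was the neighbour called higher in MC38-LM3a, by 0.38 (limma adjusted p = 0.0425), and it rose by 0.82 in MC38-LM3b (5.17e-04). Parp10, an ADP-ribosyltransferase, rose in MC38-LM3b by 0.42 (limma adjusted p = 0.00881).

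**Figure D4:**
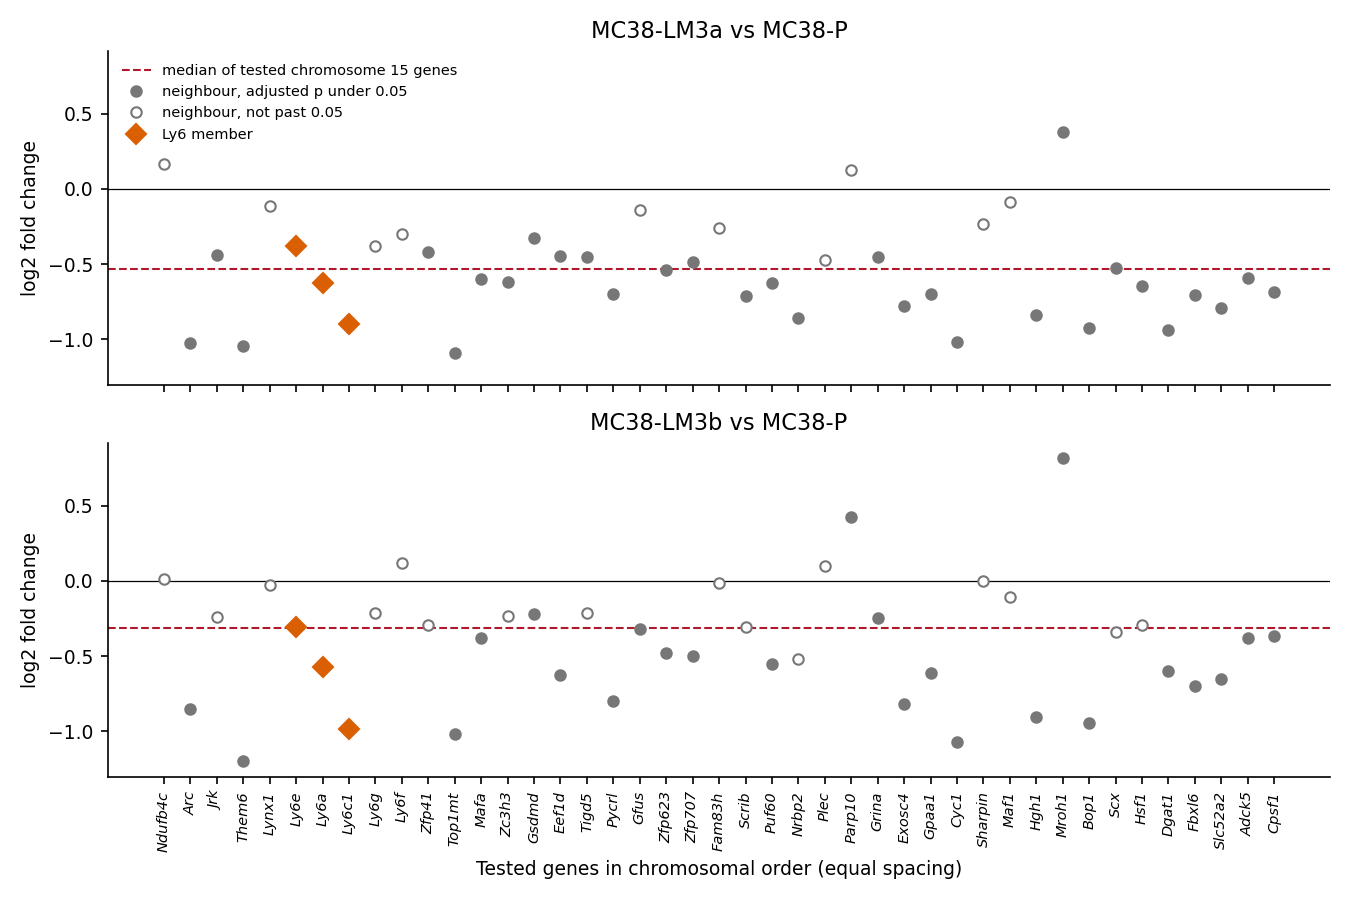
Log2 fold change (vertical axis) of the tested genes within 1 Mb of the Ly6 members, in chromosomal order with equal spacing (horizontal axis), for MC38-LM3a above and MC38-LM3b below. Orange diamonds are Ly6e, Ly6a and Ly6c1, filled circles are neighbours with an adjusted p under 0.05, open circles are the others, and the dashed line is the chromosome 15 median. Most neighbours lie below 0 (29 and 22 of 40 were called lower), and Mroh1 stands highest.

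Genes with the most similar profile were sought by the root mean square difference of log2(TPM + 1) over the 9 libraries, each gene centred on its own mean. Closest to Ly6a were Tsen34 (chromosome 7, 0.0549), which encodes a subunit of the tRNA splicing endonuclease, Dcaf13 (chromosome 15, 0.0592) and Puf60 (chromosome 15, 0.0615), a splicing factor gene within the same 1 Mb. The spread of Ly6a itself on this scale was 0.29. Closest to Ly6c1 were Emb (chromosome 13, 0.0630), which encodes the membrane glycoprotein embigin, P3h4 (chromosome 11, 0.0772) and Tmem119 (chromosome 5, 0.0867), against a spread of 0.454. Tmem119 is close to the floor, with means of 1.26 TPM in MC38-P and 0.18 and 0.23 TPM in the derivatives, and passed the filter through MC38-P alone. Close to Ly6e were Zmynd19 (chromosome 2, 0.0289) and Ddx39b (chromosome 17, 0.0422), an RNA helicase gene, against a spread of 0.171. Ly6a itself ranked 168 in likeness to Ly6c1 and 898 in likeness to Ly6e.

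Ly6a, Ly6c1 and Ly6e fell in both derivatives, and most of the tested interferon-stimulated genes rose. Interferons bind surface receptors that signal through JAK kinases and STAT proteins to genes of antiviral defence and antigen presentation. Of a list of 51 such genes without the Ly6 members, 37 were tested and 28 rose in both derivatives, where 13.3% of all tested genes did (14.1% and 35.6% were higher in MC38-LM3a and MC38-LM3b). Both shares for the single derivatives depend on the processing. In MC38-LM3b 4013 genes were higher in the values as deposited and 2586 under median centring. In MC38-LM3a 1597 became 2938 with offsets for GC content and length and 1025 with only the 2 groups compared. The median log2 fold change of the list was 0.71 in MC38-LM3a with 28 genes called higher and 2 lower (13.8% of all tested genes were lower). It was 0.99 in the other derivative, with 30 higher and 3 lower (11.2%). Rsad2, counted as higher in both, had 0.37 to 0.81 TPM in MC38-P and passed the filter through the derivatives alone. Iigp1, counted as higher in MC38-LM3b, reached 1 TPM only there. Samd9l, Oas1a and Tgtp2, counted as higher in both, reached 1 TPM in fewer than 3 MC38-P libraries and passed the filter with the help of the derivatives. For all of these genes the filter itself favoured the groups where they were high. They remain in the counts above, and their rise is no support for those counts. The largest rise was that of Psmb9, an immunoproteasome subunit, from 7.21 to 31.5 and 40.95 TPM, with log2 fold changes of 2.03 and 2.40 (limma adjusted p = 4.14e-05 and 1.09e-05).

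Of the 37 tested genes of the list, 2 were lower in both derivatives, beside 9.07% of all tested genes, and the difference between these shares was not tested. Ifitm1 (chromosome 7), one of the interferon-induced membrane proteins that block virus entry, went from 286 to 107 and 69.3 TPM, with log2 fold changes of -1.41 and -2.03 (limma adjusted p = 1.52e-06 and 7.18e-08). The other was Ifitm3, also on chromosome 7, with 602, 489 and 531 TPM and log2 fold changes of -0.30 and -0.18 (limma adjusted p = 0.00736 and 0.0482). Ifitm2 was lower in MC38-LM3b, at -0.34 (limma adjusted p = 0.00555), and had -0.12 in MC38-LM3a (0.307). Ifitm2 and Ifitm3 were named after their values were seen.

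Among 20 tested interferon receptors and signal transducers, 5 rose in MC38-LM3a, 14 rose in MC38-LM3b and 0 fell in limma, also at an unadjusted p under 0.05. The medians were 0.25 and 0.47, against 0.00 and 0.21 over all tested genes, of which 14.1% and 35.6% were called higher. Irf8, a transcription factor of the interferon regulatory family, rose most, from 15.2 to 31.8 and 36.4 TPM and by 1.02 and 1.21 on the log2 scale (limma adjusted p = 9.80e-06 and 2.28e-06). The promoters of Ly6c1 and Ly6c2 in RefSeq (GRCm38.p6, 250 bases before to 50 after each start, 2 per gene) were searched on both strands for an interferon-stimulated response element, written as GAAA followed after any 2 bases by GAAA, and for the letters TTCNNNGAA of a STAT site. They held 0 matches to either. Of 32851 promoters of this length, 3.44% held the former and 8.30% the latter. Promoters of Ly6a and Ly6e were not analysed here.

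**Figure D5:**
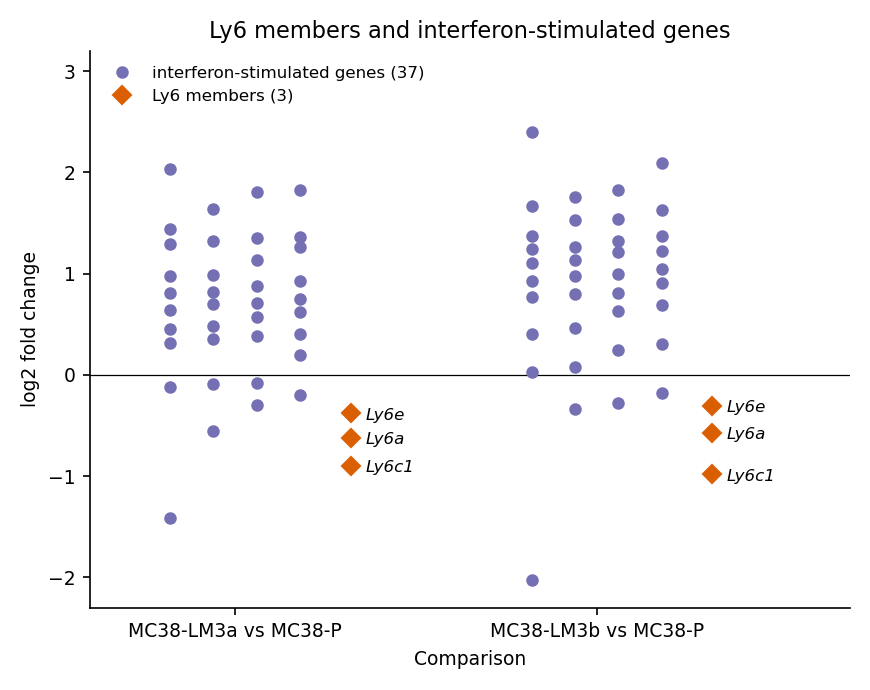
Log2 fold change (vertical axis) of 37 interferon-stimulated genes (circles, spread sideways for legibility) and of Ly6e, Ly6a and Ly6c1 (diamonds) in both comparisons with MC38-P. Most circles lie above 0, at medians of 0.71 and 0.99, and the lowest circle in each comparison is Ifitm1. The Ly6 members lie between -0.98 and -0.30.

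Other genes of the Ly6 and uPAR family were mostly silent. Of 39 further family genes 20 were listed, 13 of them stayed below 1 TPM in every library, and 5 were tested. Plaur, the urokinase receptor and the only abundant one, moved in the opposite direction to the members, with 171 ± 1.60 TPM in the parental line (SD, n = 3), 192 ± 3.24 in MC38-LM3a and 202 ± 3.32 in MC38-LM3b. Its log2 fold changes were 0.16 (limma adjusted p = 0.0329) and 0.24 (0.00333), the latter close to the median of all genes in MC38-LM3b. Besides Lynx1 and Ly6g, the genes Ly6f (0.72 to 2.01 TPM), Ly6i (0 to 1.18), Ly6g5b (0.38 to 1.11) and Spaca4 (0.22 to 2.68) reached 1 TPM somewhere. Of these 4, Ly6f and Spaca4 were tested, and neither was called.

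The GPI anchor is built in the endoplasmic reticulum and attached to proteins such as Ly6a by a transamidase. Of 27 tested genes of this pathway, 6 were higher and 2 lower in MC38-LM3a (median 0.06), beside 14.1% and 13.8% of all tested genes. The numbers in MC38-LM3b were 11 and 2 (median 0.26), where 35.6% of all tested genes were higher and 11.2% lower and the median of all was 0.21. The largest fall was that of Gpaa1, a transamidase subunit that is itself one of the chromosome 15 neighbours, from 56.1 to 34.2 and 36.3 TPM, with log2 fold changes of -0.70 and -0.61 (limma adjusted p = 1.22e-04 and 2.04e-04). Mppe1, a phosphoesterase that remodels the anchor, rose most, by 0.56 and 0.83 (limma adjusted p = 0.00787 and 5.82e-04).

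Receptors and signalling partners reported for Ly6 proteins gave 8 tested genes, of which 1 was higher and 2 lower in MC38-LM3a, beside 14.1% and 13.8% of all tested genes. In MC38-LM3b 3 were higher, near the 35.6% of all tested genes, and 0 lower in limma, also at an unadjusted p under 0.05. Tgfbr2, a TGF-beta receptor, rose from 25.3 to 38.0 and 48.3 TPM, by 0.57 and 0.91 on the log2 scale (limma adjusted p = 0.00711 and 3.15e-04). Of 7 tested genes that act with lipoprotein lipase, the enzyme that Gpihbp1 carries to the capillary lumen, MC38-LM3a had 1 higher and 3 lower (14.1% and 13.8% of all tested genes), and MC38-LM3b had 2 in either direction (35.6% and 11.2%). The maturation factor gene Lmf2, which is also on chromosome 15, fell by 0.85 and 0.60 on the log2 scale (limma adjusted p = 1.24e-04 and 7.95e-04). Sel1l rose by 0.54 and 1.00 (limma adjusted p = 0.0147 and 3.30e-04).

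Markers of other cells that carry Ly6 proteins were examined beside these values. Of 14 endothelial markers 12 were listed, 8 of them below 1 TPM in every library and the defining Pecam1 at or under 0.25 TPM. Their summed level was 36.2 to 41.5 TPM in the parental libraries. It was lower in the derivatives, at 25.3 to 27.9 (MC38-LM3a) and 28.3 to 30.1 TPM (MC38-LM3b). Of the 3 tested, 1 was called, namely Flt1, a VEGF receptor, which fell by 0.83 and 0.55 on the log2 scale (limma adjusted p = 0.00234 and 0.0139), where 13.8% and 11.2% of all tested genes fell. Of 14 monocyte and macrophage markers 9 were listed, 7 of them below 1 TPM, and Ptprc, the common leukocyte antigen, was at or under 0.09 TPM. Their sum was higher in the derivatives (38.9 to 40.2, 48.9 to 54.0 and 55.8 to 60.3 TPM), and both tested genes, Cd68 and Cd14, rose in both, as did 13.3% of all tested genes (14.1% rose in MC38-LM3a and 35.6% in MC38-LM3b). Cd68 made up most of the sum, with means of 28.8, 36.6 and 43.4 TPM in the same order of lines, so the sum mainly reports this gene. Listed neutrophil markers did not exceed 1.47 TPM and listed T and B cell markers 0.45 TPM. Listed hepatocyte markers stayed at or under 0.31 TPM.

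Of the stem and progenitor markers used together with Ly6a, 3 were tested. All 3 rose in MC38-LM3b, where 35.6% of all tested genes did, and 1 in MC38-LM3a (14.1%), and Procr, the endothelial protein C receptor, rose most, from 68.8 to 125 and 134 TPM. Kit and Cd34 stayed at or under 0.78 and 0.09 TPM. Stellate cell and fibroblast markers summed to 136 to 174 TPM in the parental libraries, 54.7 to 73.3 in MC38-LM3a and 66.4 to 73.4 in MC38-LM3b. Most of that sum was Col3a1, with means of 140.5, 54.95 and 60.9 TPM, so the sum mainly reports this gene. Col1a1 was lower by -1.55 and -1.48 (limma adjusted p = 9.81e-05 and 9.91e-05). Of 4 tested, 2 fell in each derivative (13.8% and 11.2% of all tested genes did) and 1 rose in MC38-LM3b (35.6%), and 4 of the 8 listed stayed below 1 TPM. The part of any of these cells in the Ly6 values was not tested, and in bulk RNA fewer cells of a type and less RNA per cell cannot be told apart.

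The labelled cell type was checked in the same way. Of 12 listed epithelial markers 7 were tested, with Krt8, a simple epithelial keratin, at 1127 TPM in MC38-P, while Cdh1, which encodes E-cadherin, had at most 0.08 TPM. In MC38-LM3a 3 rose and 3 fell, where 14.1% and 13.8% of all tested genes did, and in MC38-LM3b 2 rose and 3 fell, where 35.6% and 11.2% did. Among them were Epcam lower by -1.14 and -1.07 (limma adjusted p = 9.61e-05 and 1.04e-04) and Ocln, a tight junction gene, higher by 0.37 and 0.55 (0.0307 and 0.0030). The others that fell, Krt8 and Krt18, are on chromosome 15. Krt8 went to 806 and 764 TPM, with log2 fold changes of -0.48 and -0.56 (limma adjusted p = 4.65e-04 and 1.34e-04). Krt20, one of the 3 that rose in MC38-LM3a, had at most 0.79 TPM in MC38-P. It passed the filter only through the derivatives, where it was higher. Colon epithelium markers were close to absent. Vil1 did not exceed 0.13 TPM, and Cdx2, an intestinal transcription factor, had means of 2.27, 0.63 and 0.41 TPM. It reached 1 TPM only in the MC38-P libraries and so passed the filter through the group where it was high.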

How the data were processed

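The authors deposited TPM values with 2 decimals for each of the 9 libraries, with a symbol and an NCBI Gene number per gene. The submitters' processing notes name HISAT and GRCm39 without versions or roles, the study's methods name DESeq2, and the quantification tool is not given in the sources used here. Groups came from the sample labels. Counts were absent from the files, so count tests could not be run.

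Values were converted to log2(TPM + 1), which understates the fold change of low genes. One limma model (limma 3.58.1, R 4.3.3) covered all 9 libraries and the 11287 genes past the filter, and used 1 mean for each group, a trended prior variance and Benjamini-Hochberg adjustment. A gene was called at an adjusted p-value under 0.05. The procedure was tested on simulated data in which 200 genes were changed by 2 on the log2 scale, up or down. In MC38-LM3a against MC38-P 199 of them were called, with 9 false calls. Between the derivatives 199 were called, with 13 false calls. The change was placed in MC38-LM3a alone, so MC38-LM3b against MC38-P held no changed gene, and 0 genes were called there. P-values measure the spread between cultures of the same cells.

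The members, gene lists and tests were chosen with earlier results of these data known. The text names all members, the extremes of each list, family genes that reach 1 TPM, the 3 nearest profiles per member (1 of them is not reported here) and the nearest tested neighbours. Named in addition, after their values were seen, were Mroh1, Parp10, Krt8, Krt18, Krt20, Cd14, Col3a1, Ifitm2, Ifitm3, Rsad2, Iigp1, Samd9l, Oas1a and Tgtp2. So were the markers given by their upper limit. GRCm38 annotation served only for chromosome, gene order, sequences, GC content and length. Alternatives changed the pseudocount, filter, libraries in the fit, replicate block, normalization and trend, or left out each library.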

Additional observations from a re-analysis of the deposited data

How the results depend on the processing

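Ly6a, Ly6c1 and Ly6e stayed lower and past the threshold in both comparisons with MC38-P under all 10 planned settings and without each library in turn. Leaving out a library gave log2 fold changes of -0.68 to -0.58 and -0.62 to -0.54 for Ly6a, -0.97 to -0.83 and -1.04 to -0.93 for Ly6c1, and -0.42 to -0.35 and -0.34 to -0.28 for Ly6e, with limma adjusted p-values up to 0.0146. Centring on chromosome 15 was chosen after seeing the data, and the share of all genes called under it is not given here. It left 1 of 3 members called in MC38-LM3b, made Ly6e 0.20 and 0.048, and made the differences between the derivatives -0.18 for Ly6a and -0.15 for Ly6e. Centring on the median of tested genes made these -0.17 and -0.15, and offsets for GC content and length made that of Ly6e -0.052, none of them called, and Ly6c1 moved from -0.09 to -0.31 under either centring and to -0.26 under quantile normalization, also not called. Replicate numbers did not pair the libraries (correlation of same-numbered deviations from -0.66 to 0.07). With a replicate block 3, 3 and 0 members were called in the 3 comparisons, as without it.

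Over all genes, 3160 calls in MC38-LM3a became 5669 with offsets for GC content and length, 2101 with only the 2 groups compared, and 2083 to 4211 without 1 library. In MC38-LM3b, 5276 calls became 3702 to 6637 without 1 library, and 4013 higher and 1263 lower became 2586 and 2981 under median centring, 2928 and 2767 under quantile normalization and 3250 and 3140 with the offsets. Between the derivatives, 6 calls became 0 with at least 1 TPM required in all 9 libraries, 12 with median centring, 23 with the offsets, 3 with only the 2 groups, 2 with a pseudocount of 0.1, 10 with quantile normalization and 2 with a replicate block. Without 1 library they ranged from 0 to 6351, the latter without replicate 3 of MC38-LM3a, where no Ly6 member was called. The causes were not tested. Depth is unknown.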
